A study of Mus musculus with 12 samples.

Results

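Interferon-stimulated genes were followed on expression arrays of mouse macrophages exposed to estradiol in culture or taken from pregnant animals. The list held 40 genes. It comprised 6 genes typical of the response to interferon gamma (Gbp2, Gbp3, Igtp, Irgm1, Iigp1 and Irf1), called the gamma-type genes below. The other 34 genes are called type I genes because they are not in the gamma-type list. A gene counted as measured when at least 1 probe set of the array was paired with it and with no other gene. Where several were, the brightest on average over the 12 arrays stood for the gene. By this rule 37 of the 40 genes were measured, out of 12393 genes on the array. They were 31 of the 34 type I genes and 6 of the 6 gamma-type genes. Isg15, Ifi44 and Ly6e had no such probe set and were not analysed here. For 11 of the 37 genes a choice between several probe sets was made.

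Total RNA of 12 samples was measured, in 4 groups of 3. RAW264.7 cells, a mouse macrophage-like line that grows as a single established clone, were either Unstimulated or exposed to Estradiol at 1 ug/mL overnight. The other groups were cells of bronchoalveolar lavage, which rinses loose cells from the lung's air spaces, from Control mice and from Pregnant mice, extracted directly. The series' design text speaks of vehicle for the RAW264.7 cultures that the sample labels call Unstimulated, and the label on treatment names estradiol for all 12 samples. Groups were therefore taken from the group label alone. Strain, age, sex, stage of pregnancy, pooling of animals and sorting of the lavage cells are not given in the sources used here. The labels do not say whether replicates were separate cultures or animals, so p-values speak only of how these samples varied, and that variation may be technical.

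Interferons are secreted proteins that warn cells of viruses and other intracellular microbes. Type I interferons bind the receptor made of Ifnar1 and Ifnar2 and activate a complex that includes Stat2 and Irf9 and binds a DNA element called the interferon-stimulated response element, ISRE. Interferon gamma binds Ifngr1 and Ifngr2 and acts through DNA elements called gamma-activated sites, GAS. Both routes induce overlapping sets of genes, and macrophages commonly keep a low basal level of interferon signalling even without infection. The label "gamma-type" therefore names a typical inducer, not an exclusive one, and "type I" stands for all other genes of the list.

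The DNA just upstream of several of these genes is shown because it carries the elements through which interferon acts, and because the genes shown include the type I and gamma-type genes with the smallest p-values for estradiol among those with a listed promoter. Each line gives the 250 bases before the most upstream listed transcript start, in the direction of transcription, from RefSeq on GRCm38.p6. The windows are Sp100 at chr1:85649738-85649987 on the plus strand, Nmi at chr2:51973209-51973458 on the minus strand and Gbp2 at chr3:142620413-142620662 on the plus strand. Irgm1 lies at chr11:48871421-48871670 and Oas1a at chr5:120907526-120907775, both on the minus strand. Oas1a was added after its motifs had been seen. Capitals mark every match to the ISRE letters GAAANNGAAA (TTTCNNTTTC on the other strand) or the GAS letters TTCNNNGAA, which read the same on both strands.
Sp100: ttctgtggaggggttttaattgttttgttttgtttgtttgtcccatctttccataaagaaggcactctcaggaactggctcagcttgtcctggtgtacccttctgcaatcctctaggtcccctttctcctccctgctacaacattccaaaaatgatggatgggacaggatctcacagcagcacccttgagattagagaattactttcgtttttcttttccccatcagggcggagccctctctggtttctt
Nmi: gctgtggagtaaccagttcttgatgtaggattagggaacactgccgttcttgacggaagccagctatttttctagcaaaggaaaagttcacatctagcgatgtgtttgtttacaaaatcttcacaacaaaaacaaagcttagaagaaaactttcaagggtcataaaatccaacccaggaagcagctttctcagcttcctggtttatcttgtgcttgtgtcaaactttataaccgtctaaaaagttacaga
Gbp2: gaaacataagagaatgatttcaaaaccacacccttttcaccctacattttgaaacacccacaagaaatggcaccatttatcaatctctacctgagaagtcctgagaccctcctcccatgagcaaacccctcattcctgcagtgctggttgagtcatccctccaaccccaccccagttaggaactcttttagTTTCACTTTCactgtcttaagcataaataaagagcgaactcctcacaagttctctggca
Irgm1: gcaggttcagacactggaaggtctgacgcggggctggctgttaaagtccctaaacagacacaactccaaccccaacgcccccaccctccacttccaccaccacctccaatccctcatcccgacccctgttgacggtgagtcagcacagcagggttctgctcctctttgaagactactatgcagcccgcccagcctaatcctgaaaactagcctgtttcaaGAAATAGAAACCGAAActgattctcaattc
Oas1a: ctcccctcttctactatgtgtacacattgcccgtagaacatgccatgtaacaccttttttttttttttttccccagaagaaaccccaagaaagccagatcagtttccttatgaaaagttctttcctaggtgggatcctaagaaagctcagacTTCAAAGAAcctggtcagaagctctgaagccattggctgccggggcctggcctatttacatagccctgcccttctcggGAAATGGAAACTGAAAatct

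The Gbp2 window held 1 ISRE match, 59 to 50 bases before the start. In Irgm1, 2 overlapping ISRE matches began 30 and 24 bases before the start. In Oas1a, 2 overlapping ISRE matches began 20 and 14 bases before it, and 1 GAS match lay 98 to 90 bases before it. The Sp100 and Nmi windows held neither set of letters. Of the 37 measured genes 29 had a listed promoter. An ISRE match was present in 11 of the 29 (37.9%) against 3.05% of 27025 mouse genes, and a GAS match in 7 (24.1%) against 7.14%. Gamma-type genes held an ISRE match in 4 of 5 (Gbp2, Gbp3, Igtp and Irgm1), and type I genes in 7 of 24. A GAS match was present in 2 of 5 gamma-type genes (Irf1 and Igtp) and in 5 of 24 type I genes. Among type I genes that fell with estradiol the ISRE count was 3 of 12, and among those not called it was 4 of 12. The GAS counts were 3 of 12 and 2 of 12. These are matches of letters, not measured binding.

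Array medians ranged from 369 to 393 in intensity, and arrays of the same group correlated at 0.995 to 0.999. Estradiol replicate 2 stood apart in RNA quality, as its actin 3' minus 5' difference was 0.743 (log2) and the other arrays of that line had 0.389 to 0.48. Of 7 macrophage markers 5 (Csf1r, Adgre1, Cd68, Lyz2 and Fcgr1) were above the 40th percentile of their array in all 4 groups, Fcgr1 at a mean of 8.66 (log2) in Unstimulated and 13.10 in Control. Mertk was not above it in RAW264.7 (4.52 in Unstimulated, 12.11 in Control), nor Itgam in lavage (8.79 and 5.61). All 8 measured alveolar macrophage markers were higher in lavage, and 7 of the 8 were not above the 40th percentile in Unstimulated RAW264.7. The summed intensity of 7 neutrophil markers was 6390 to 20460 in Control and 6690 to 11290 in Pregnant lavage, and that of 8 epithelial markers was 13910 to 23480 and 15840 to 26880. On RAW264.7 arrays the epithelial sum was 324 to 390, with none of the 8 markers above the 40th percentile. B cell markers, and 3 of 4 markers of plasmacytoid dendritic cells (all but Cox6a2), were not above the 40th percentile in any group.

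Estradiol exposure of RAW264.7 cells was accompanied by lower levels of many type I interferon-stimulated genes. Of 31 type I genes 13 fell, none rose (2 rose at an unadjusted p under 0.05, Mx1 and Bst2) and 18 were not called, with calls made in limma where p, adjusted over all 12393 genes, was below 0.05. The background share of all genes was 4.66% lower and 6.75% higher. The median change of the 31 genes was -0.32 (log2), against 0.02 over all genes, and 8 of the 31 values were above 0, against 54.9% of all genes. At an unadjusted p under 0.05 there were 20 of 31 type I genes, against 26.9% of all genes. The gamma-type genes were divided, with Gbp2 and Gbp3 higher, Irgm1 and Igtp lower, and Irf1 and Iigp1 not called, and their median was 0.04. Values below are log2(intensity + 1), each group had n = 3 arrays, and each change is given with its standard error (SE).

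**Figure D1:**
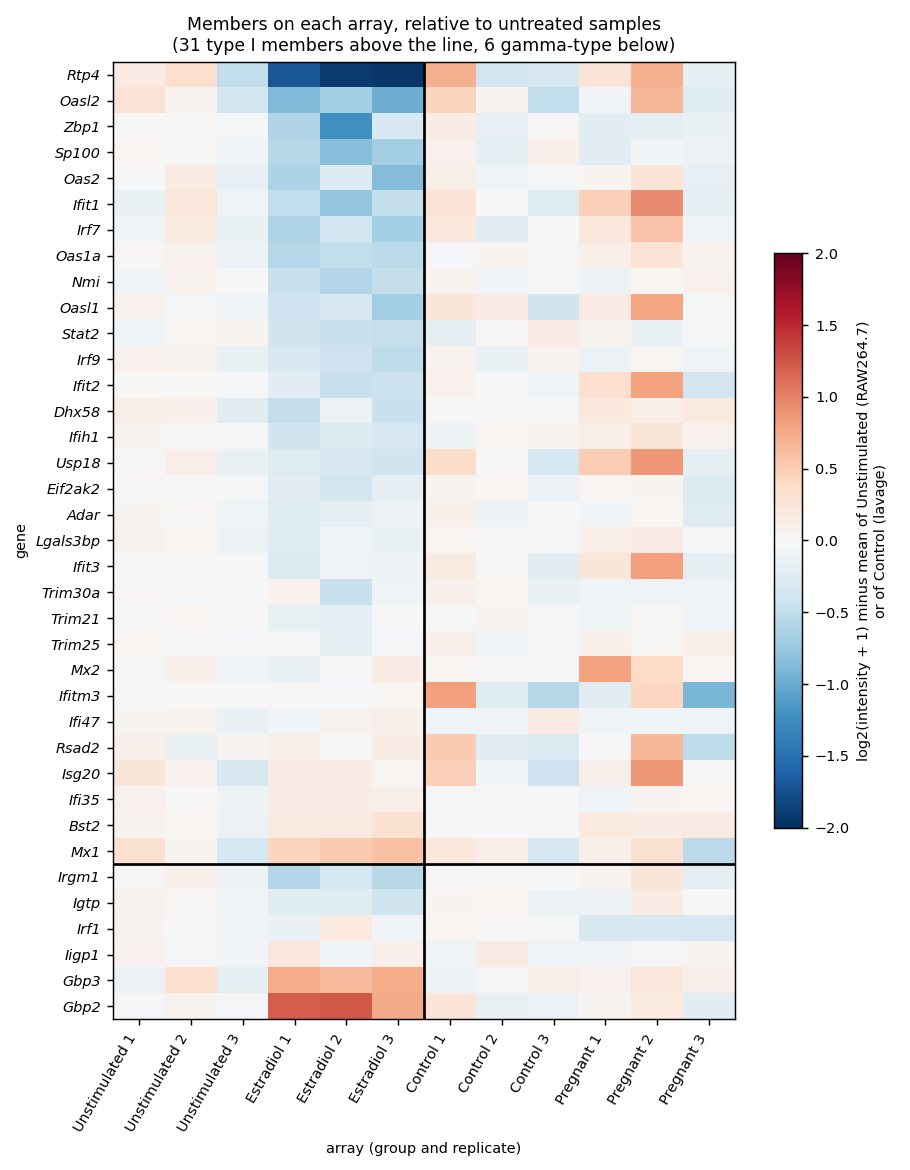
Each row is 1 of the 37 measured genes and each column 1 array. Colour is log2(intensity + 1) minus the mean of the Unstimulated arrays (RAW264.7) or of the Control arrays (lavage). The 3 Estradiol columns are blue for most type I genes and red for Gbp2 and Gbp3, whereas the Pregnant columns differ from each other.

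Transcription factors and nuclear regulators held the most calls by role, with 5 of 7 lower. Stat2 and Irf9 belong to the complex that binds the ISRE. Stat2 measured 9.10, 9.23 and 9.23 on the Unstimulated arrays and 8.78, 8.75 and 8.72 on the Estradiol arrays, and fell by 0.44 ± 0.06 SE (limma, adjusted p = 0.0042). Irf9 measured 9.69, 9.68 and 9.46 against 9.30, 9.19 and 9.09, and fell by 0.41 ± 0.08 SE (limma, adjusted p = 0.0248). Every Estradiol array lay below every Unstimulated array for these genes. Irf7, the factor that amplifies interferon production, measured 8.02, 8.27 and 7.95 against 7.46, 7.69 and 7.40. It fell by 0.56 ± 0.11 SE (limma, adjusted p = 0.0198). Sp100, a component of PML nuclear bodies, was at 9.74, 9.71 and 9.63 against 9.13, 8.85 and 9.02. It fell by 0.70 ± 0.08 SE (limma, adjusted p = 0.0026). The groups did not overlap for either gene. Nmi, a protein that binds STAT factors, went from 10.75, 10.87 and 10.80 to 10.35, 10.21 and 10.33, a fall by 0.51 ± 0.06 SE (limma, adjusted p = 0.0032). Its partner Ifi35 was not called, at 0.14 ± 0.06 SE. Irf1, a gamma-type gene that is also a transcription factor, was at 0.00 ± 0.09 SE, with a 95% interval from -0.22 to 0.23.

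The oligoadenylate synthetase family, whose products switch on RNase L to cut RNA, was lower in 3 of 4 genes. Oas1a measured 11.41, 11.47 and 11.27 in Unstimulated and 10.81, 10.89 and 10.84 in Estradiol cells. It fell by 0.53 ± 0.07 SE (limma, adjusted p = 0.0034). The synthetase-like gene Oasl1 measured 8.50, 8.38 and 8.34 against 7.99, 8.08 and 7.71, a fall by 0.48 ± 0.10 SE (limma, adjusted p = 0.029). All Estradiol values of both genes were lower. Oasl2 measured 5.65, 5.43 and 5.0 against 4.48, 4.68 and 4.39. It fell by 0.84 ± 0.17 SE (limma, adjusted p = 0.0213), on a dim probe set. A gene is termed dim here if fewer than 3 of the 6 arrays showed it above their own 40th percentile. Oas2 had a change of -0.59 ± 0.15 SE and missed the threshold (limma, adjusted p = 0.0539), with 9.0, 9.18 and 8.85 against 8.37, 8.73 and 8.15 in Estradiol cells.

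The IFIT family, which binds foreign RNA and limits its translation, was lower in 2 of 3 genes. Ifit1, a dim gene in this line, measured 6.56, 6.92 and 6.61 against 6.21, 5.92 and 6.22 and fell by 0.58 ± 0.12 SE (limma, adjusted p = 0.0268). Ifit2 measured 8.71, 8.74 and 8.71 against 8.50, 8.26 and 8.29 and fell by 0.37 ± 0.07 SE (limma, adjusted p = 0.0215). Neither pair of groups overlapped. Ifit3, also dim, was not called at -0.16 ± 0.07 SE. Among 6 sensors of foreign nucleic acid and RNA-directed enzymes, 2 were lower. Ifih1, the sensor MDA5 of long double-stranded RNA, measured 8.79, 8.70 and 8.72 against 8.33, 8.46 and 8.41. It fell by 0.34 ± 0.06 SE (limma, adjusted p = 0.0113). Eif2ak2, the kinase PKR that halts translation, measured 10.55, 10.53 and 10.50 against 10.31, 10.16 and 10.33. It fell by 0.26 ± 0.06 SE (limma, adjusted p = 0.035), the smallest change among the called genes. Dhx58 (-0.35 ± 0.13 SE), Adar (-0.18 ± 0.06 SE), Isg20 (0.11 ± 0.14 SE) and Zbp1 (-0.71 ± 0.21 SE) were not called. Zbp1, a sensor of Z-form nucleic acid, spread widely after estradiol, at 5.35, 4.73 and 5.65 against 5.96, 5.98 and 5.93.

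Rtp4, a receptor transporter protein that is strongly induced by interferon, had the largest change of the 37 genes. Its level was 9.12, 9.28 and 8.48 on the Unstimulated arrays and 7.25, 7.05 and 7.01 on the Estradiol arrays. The level was 3.62-fold lower with estradiol (log2 change -1.86 ± 0.20 SE; limma, adjusted p = 0.0020). It was above the 40th percentile on 3 of 3 Unstimulated and 0 of 3 Estradiol arrays. A second, dimmer probe set of Rtp4 gave -0.49, and the mean of both gave -1.17, so the size of this change depends on the probe set. The other membrane and secreted proteins were not called. They were Ifitm3, which blocks viral entry (0.01 ± 0.05 SE), Bst2, which tethers budding virus (0.22 ± 0.07 SE), and the secreted glycoprotein Lgals3bp (-0.16 ± 0.07 SE). Ifitm3 was nearly constant at 13.79, 13.84 and 13.82 against 13.84, 13.80 and 13.85, and its 95% interval ran from -0.10 to 0.12.

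Several further roles held no call. The antiviral effectors Mx1, Mx2 and Rsad2 were at 0.52 ± 0.16, 0.01 ± 0.09 and 0.09 ± 0.08 SE. Mx1 missed the threshold (limma, adjusted p = 0.0851), and all 3 genes were dim in RAW264.7. The ISG15 enzymes were Usp18, which removes ISG15 and damps receptor signalling, and Trim25, a ligase. Usp18 measured 11.02, 11.14 and 10.86 against 10.76, 10.70 and 10.61, without overlap, and just missed the threshold at -0.32 ± 0.08 SE (limma, adjusted p = 0.0518). Trim25 was at -0.07 ± 0.06 SE. Trim21, Trim30a and the GTPase gene Ifi47 had values of -0.11 ± 0.07, -0.15 ± 0.13 and 0.04 ± 0.07 SE. Second, dimmer probe sets gave -0.40 for Trim21 and -0.47 for Trim30a, so the size of these changes depends on the probe set. In all, 18 of 31 type I genes had lower groups without overlap and 3 had higher ones, against 14.9% and 19.9% of all genes.

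Gamma-type genes moved in both directions. Gbp2 and Gbp3 encode guanylate-binding proteins, GTPases that attack the vacuoles of intracellular microbes. Gbp2 measured 4.82, 4.93 and 4.84 on Unstimulated and 6.07, 6.10 and 5.62 on Estradiol arrays, and was 2.10-fold higher (log2 change 1.07 ± 0.13 SE; limma, adjusted p = 0.0032). Gbp3 measured 5.01, 5.45 and 4.93 against 5.86, 5.78 and 5.87, and was 1.63-fold higher (0.71 ± 0.13 SE; limma, adjusted p = 0.0188). The groups did not overlap, but both genes were dim in this line. The second probe set of Gbp2 gave 0.94. Irgm1 and Igtp belong to the immunity-related GTPases, which act on the same vacuoles. Irgm1 measured 10.47, 10.58 and 10.37 against 9.89, 10.12 and 9.93 and fell by 0.50 ± 0.08 SE (limma, adjusted p = 0.0127). Igtp measured 8.43, 8.38 and 8.27 against 8.11, 8.11 and 7.96 and fell by 0.29 ± 0.07 SE (limma, adjusted p = 0.0371). Iigp1, of the same family, was dim everywhere and not called, at 4.06, 3.94 and 3.92 against 4.18, 3.91 and 4.08. Irf1 overlapped, at 9.96, 9.87 and 9.81 against 9.74, 10.08 and 9.82. Of the 37 genes 11 were dim in this comparison, including 2 of the 2 that rose and 2 of the 15 that fell (Ifit1 and Oasl2).

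**Figure D2:**
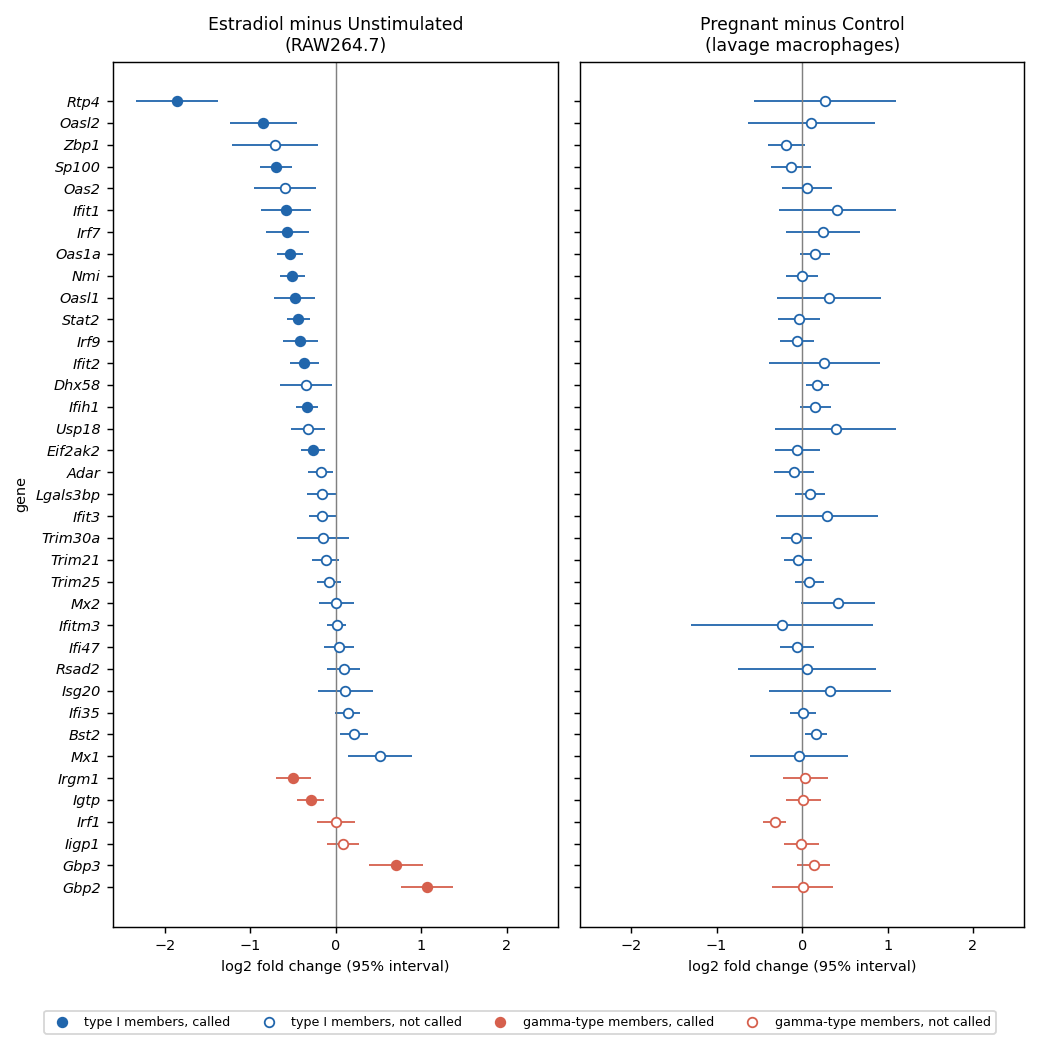
Log2 fold changes of the 37 genes with 95% intervals (limma, n = 3 per group), for estradiol in RAW264.7 (left) and pregnancy in lavage cells (right). Filled points mark called genes (adjusted p under 0.05). There are 17 filled points on the left, 15 of them below 0, and none on the right.

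The calls differed in how far they rested on single arrays. Rtp4, Oas1a, Stat2, Sp100, Nmi and Gbp2 were called under every alternative that tested them (Gbp2 was removed by the filter on dim genes). The limma adjusted p over the alternatives was 0.000169 to 0.0127 for Rtp4, 0.000495 to 0.0207 for Oas1a, 0.00158 to 0.0276 for Stat2, 0.000608 to 0.0178 for Sp100, 0.000694 to 0.0199 for Nmi and 0.000644 to 0.0198 for Gbp2. The other 11 calls were each lost under at least 1 alternative. Their limma adjusted p reached 0.0543 for Ifih1, 0.0551 for Irgm1, 0.0682 for Irf7, 0.072 for Gbp3, 0.0864 for Oasl2 and 0.0988 for Irf9. It reached 0.125 for Eif2ak2, 0.132 for Igtp, 0.185 for Ifit1, 0.213 for Oasl1 and 0.367 for Ifit2. The call of Igtp was also lost under both alternative scalings. In place of 13 type I genes, 6 were lower without Unstimulated replicate 1, 6 without Unstimulated replicate 2 and 8 without Estradiol replicate 3. Without Unstimulated replicate 1, 2 or 3 the lost calls numbered 10, 9 and 6 of 17, and without Estradiol replicate 1 or 3 they numbered 6 and 9. The number of calls over all genes fell as well, from 1414 to between 637 and 684 without an Unstimulated array. Without Estradiol replicate 2, the array of weaker RNA quality, none of the 17 calls was lost and 20 of the 37 genes were called, 2 higher and 18 lower.

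**Figure D3:**
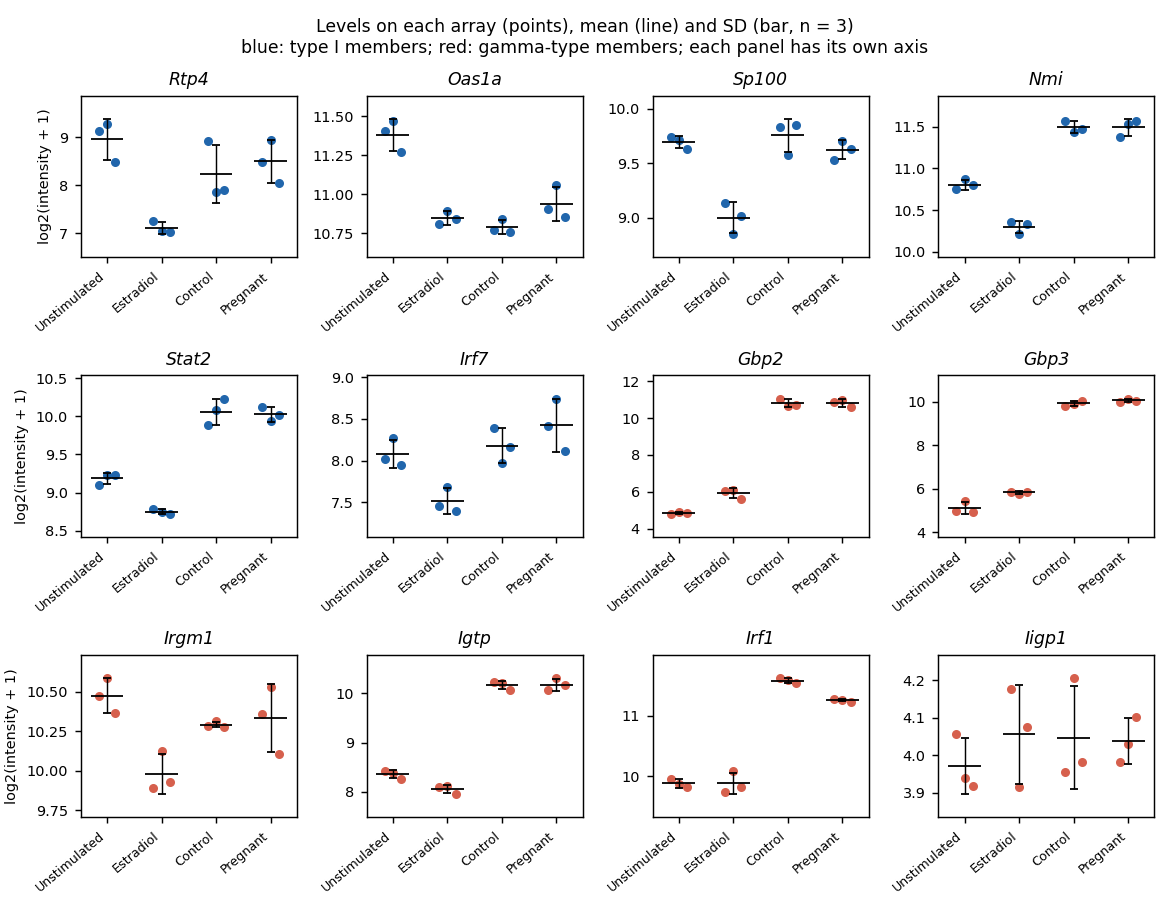
Log2(intensity + 1) on each array for 12 genes, with the group mean (line) and SD (bar, n = 3). Each panel has its own vertical axis, which does not start at 0. The Estradiol points of Rtp4, Oas1a, Sp100, Nmi, Stat2, Irf7, Irgm1 and Igtp lie below the Unstimulated points, and those of Gbp2 and Gbp3 above them.

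Genes of the pathway outside the 40 were read from lists drawn up with earlier results of these data known. Of 11 interferon and receptor genes none was called with estradiol by limma, and 1 had an unadjusted p under 0.05. Ifnb1 (-0.04 ± 0.07 SE) and Ifng (-0.02 ± 0.06 SE) were above the 40th percentile on 0 of 6 arrays. The receptor chains were Ifnar1 at 0.06 ± 0.05, Ifnar2 at 0.12 ± 0.05, Ifngr1 at -0.01 ± 0.12 and Ifngr2 at 0.12 ± 0.09 SE. Of 17 receptor signalling and feedback genes, the kinase Jak2 rose by 0.24 ± 0.06 SE (limma, adjusted p = 0.048) and the transcription factor Irf4 fell by 0.66 ± 0.09 SE (limma, adjusted p = 0.0064). With 2 of 17 called, against 11.4% of all genes, the list was at the background share. Of 18 genes of sensing that leads to interferon, the kinase Ikbke rose by 0.99 ± 0.14 SE (limma, adjusted p = 0.0053) and the RNA receptor Tlr7 fell by 0.30 ± 0.05 SE (limma, adjusted p = 0.0097). That list, with 2 of 18 called, was at the background share too.

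Of 47 further interferon-induced genes 9 fell (19.1%, against 4.66% of all genes) and 3 rose (6.38%, against 6.75%), with a median of -0.11. The fallers included Ms4a4c (-1.71 ± 0.12 SE; limma, adjusted p = 0.00042) and Ifi27l2a (-1.31 ± 0.08 SE; limma, adjusted p = 0.00025). Epsti1 (-0.85 ± 0.11 SE; limma, adjusted p = 0.0036), the DNA-binding protein Ifi202b (-0.52 ± 0.07 SE; limma, adjusted p = 0.0039) and the ADP-ribosyltransferase family gene Parp9 (-0.40 ± 0.06 SE; limma, adjusted p = 0.0060) fell too. The chemokine gene Cxcl10 rose by 0.59 ± 0.06 SE (limma, adjusted p = 0.0013) on a probe set above the 40th percentile on 0 of 6 arrays. Among marker genes of other cells, Cd28 moved by -1.15 and S100a8 by 1.74 with estradiol, while 7 of 8 T cell markers and 6 of 7 neutrophil markers were not above the 40th percentile in Estradiol cells. The summed T cell markers ranged over 2650 to 3191 in Unstimulated and 1455 to 1609 in Estradiol cells, and the neutrophil markers over 318 to 335 and 491 to 557. Their part in the changes was not tested.

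Pregnancy gave no call among the 37 genes in lavage cells, and 0% of all 12393 genes were called by limma. At an unadjusted p under 0.05 there were 3 of the 37 genes, or 8.11%, against 9.38% of all genes. In such bulk RNA, fewer cells of a type and less RNA per cell cannot be told apart. Irf1, which promotes the transcription of many interferon-induced genes, had the smallest p. It measured 11.62, 11.58 and 11.55 in Control and 11.28, 11.26 and 11.23 in Pregnant lavage, without overlap. The difference was -0.32 ± 0.06 SE, with a 95% interval from -0.46 to -0.19, and did not pass adjustment (limma, adjusted p = 0.395). Dhx58, the RNA sensor LGP2, measured 9.95, 9.97 and 9.91 against 10.15, 10.08 and 10.14, a difference of 0.18 ± 0.06 SE (limma, adjusted p = 0.483). Dimmer probe sets of Dhx58 gave -0.18 and 0.02, so the direction of this difference depends on the probe set. Bst2 measured 10.36, 10.39 and 10.37 against 10.56, 10.52 and 10.53, a difference of 0.16 ± 0.05 SE (limma, adjusted p = 0.483). These 3 genes were picked for their small p, and the share of such genes was no higher than over all genes. T cell markers were lower for 6 of 8 genes in Pregnant lavage, with a median of -0.89. The 8 values ran from -1.37 to 0.02. Thy1 (-1.11 ± 0.34 SE; limma, adjusted p = 0.470) and Cd28 (-0.96 ± 0.29 SE; limma, adjusted p = 0.461) were lowest in p but above the 40th percentile on 0 of 6 arrays. Cd3e and Cd3g were above it on some or all Control arrays and on no Pregnant array. The summed T cell markers, carried mostly by Cd2, were 11480 to 11940 in Control and 10730 to 12100 in Pregnant lavage, and their part in the differences was not tested.

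The median over type I genes was 0.08, with 19 of 31 values above 0, against a median of 0.03 and 60.5% of values above 0 over all genes. The gamma-type median was 0.01. Groups did not overlap for 4 genes that were higher and 1 that was lower in Pregnant lavage, against 10.7% and 4.99% of all genes. For several type I genes the replicates left a wide interval. The 95% interval ran from -0.56 to 1.09 for Rtp4, from -0.27 to 1.10 for Ifit1 and from -1.30 to 0.82 for Ifitm3. For others it was narrow, as for Nmi (-0.19 to 0.18), Stat2 (-0.28 to 0.21) and Igtp (-0.19 to 0.22). Of the 13 type I genes that fell with estradiol, 8 had a positive and 5 a negative value in pregnancy, with a median of 0.15. No gene of the other interferon lists was called in pregnancy. Under the alternatives none of the 37 genes was called either, and the other lists were not read there.

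The estradiol and pregnancy changes were compared directly, in a model of all 12 arrays. The difference was called for 6 of 37 genes, 5 lower and 1 higher, against 2.21% and 2.22% of all genes (4.43% in either direction). Oas1a fell by 0.53 with estradiol and measured 10.77, 10.84 and 10.76 in Control and 10.90, 11.06 and 10.85 in Pregnant lavage (0.15 ± 0.07 SE). The difference of its changes was -0.68 ± 0.10 SE (limma, adjusted p = 0.0035). Ifih1, at 10.62, 10.76 and 10.80 against 10.86, 10.96 and 10.81 in lavage, had a difference of -0.49 ± 0.09 SE (limma, adjusted p = 0.0144). These 2 calls held in all 18 alternatives. Nmi was level in lavage, at 11.57, 11.43 and 11.48 against 11.38, 11.53 and 11.57, and its difference was -0.51 ± 0.10 SE (limma, adjusted p = 0.0164). Gbp2 was also level there, at 11.06, 10.66 and 10.68 against 10.85, 10.99 and 10.57, with a difference of 1.06 ± 0.21 SE (limma, adjusted p = 0.0209). Rtp4 spread over 8.93, 7.86 and 7.89 in Control and 8.48, 8.95 and 8.05 in Pregnant lavage, with a difference of -2.12 ± 0.44 SE (limma, adjusted p = 0.0238). Sp100 measured 9.84, 9.58 and 9.85 against 9.53, 9.71 and 9.63, with a difference of -0.57 ± 0.13 SE (limma, adjusted p = 0.0352). The other 31 genes, among them Stat2, Irf7 and Irf9, were not called for a difference. A different response of these genes to estradiol and pregnancy was not shown. Estradiol was given to a cell line in culture, whereas pregnancy was read in lavage cells. A called difference therefore cannot be told apart from a difference in cell type, culture or mix of cells.

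Untreated cells of both sources differed far more than either treated pair. This comparison shares its arrays with the others and also differs in culture and in the mix of cells, which cannot be told apart from cell type. Against 61.9% of all genes, 32 of 37 interferon-stimulated genes differed between Control lavage and Unstimulated RAW264.7, 21 higher and 11 lower in lavage (27.9% and 34% of all genes). Type I genes were higher in 17 and lower in 10 of 31, and gamma-type genes were higher in 4 and lower in 1 of 6. Their medians were 0.69 and 1.75, against -0.07 over all genes.

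Gbp2 and Gbp3, dim in RAW264.7, were strongly expressed in lavage. With Control values of 11.06, 10.66 and 10.68, Gbp2 was higher by 5.94 ± 0.11 SE (log2; limma, adjusted p = 1.0e-07). Gbp3 measured 9.82, 9.89 and 10.04 in Control lavage and was higher by 4.79 ± 0.15 SE (limma, adjusted p = 7.1e-07). Their rise with estradiol took place far below the lavage level. Zbp1 measured 10.42, 10.11 and 10.29 in Control lavage and was higher by 4.31 ± 0.08 SE (limma, adjusted p = 1.0e-07). Gbp2, Gbp3, Zbp1 and Rsad2 were above the 40th percentile on 0 of 3 Unstimulated arrays, so the size of these differences rests on values near the low end of the array. Irf1 was higher by 1.70 ± 0.06 SE, Igtp by 1.81 ± 0.07 SE, Rsad2 by 3.34 ± 0.22 SE and Ifih1 by 1.99 ± 0.06 SE.

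Other antiviral genes had the opposite order. Ifitm3 measured 10.29, 9.24 and 8.91 in Control lavage and was 20.2-fold lower than in RAW264.7 (-4.34 ± 0.34 SE; limma, adjusted p = 4.9e-05). Usp18 measured 7.89, 7.52 and 7.18 there and was 11.2-fold lower (-3.48 ± 0.18 SE; limma, adjusted p = 7.7e-06). Oas2, at 6.98, 6.78 and 6.82, was lower, at -2.15 ± 0.10 SE (limma, adjusted p = 4.4e-06), and Oasl1 was at -1.47 ± 0.17 SE. Both were above the 40th percentile on 0 of 3 Control arrays, which makes the size of their differences uncertain. Members of the same family thus went opposite ways. Oasl2 was higher by 1.10 ± 0.27 SE. Ifit1 (1.65 ± 0.16 SE) and Ifit3 (1.40 ± 0.10 SE) were higher while Ifit2 was at -0.46 ± 0.06 SE. Oasl2 was above the 40th percentile on 0 of 3 arrays in both groups, and Ifit1 and Ifit3 on 0 of 3 Unstimulated arrays. The size of the differences of Oasl2, Ifit1 and Ifit3 is therefore uncertain too. Rtp4, Mx2, Irf7, Sp100 and Iigp1 were not called. The small differences of Irgm1 (-0.18 ± 0.06 SE) and Bst2 (-0.18 ± 0.06 SE) lost their calls under 8 and 7 of 13 alternatives, and that of Ifit2 was lost with all 12 arrays in one fit.

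**Figure D4:**
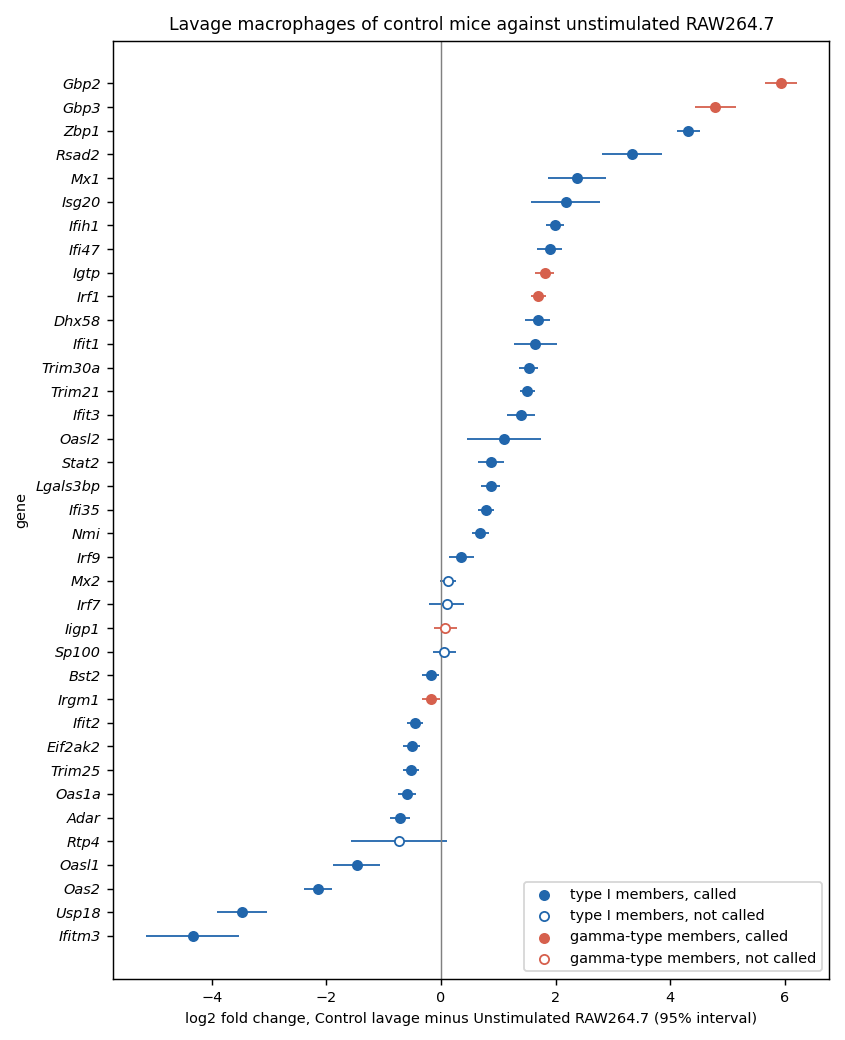
Log2 fold change of the 37 genes in Control lavage minus Unstimulated RAW264.7 with 95% intervals (limma, n = 3 per group), sorted by size. Filled points mark called genes. Gbp2, Gbp3 and Zbp1 stand at the high end, above 4, and Ifitm3 and Usp18 at the low end.

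The median SD of type I genes was above that of all genes in lavage and in Unstimulated cells. It was 0.121 in Control and 0.151 in Pregnant lavage, against 0.100 and 0.100 over all genes (n = 3 each). In Pregnant lavage 13 of 31 type I genes, and in Control lavage 9 of 31, exceeded the 90th percentile of the SD over all genes, which 10% of genes exceed by construction. None of the 6 gamma-type genes did so in either group, but they shared the shift on Pregnant replicate 2, where 5 of 6 lay above their group mean with a median deviation of 0.107, against 25 of 31 and 0.112 for type I genes. That the classes differ in spread was not tested. Pregnant replicate 2 gave the highest of the 3 values for 23 of 31 type I genes (36.2% of all genes) and Pregnant replicate 3 the lowest for 22 of 31 (29.5% of all genes). Control replicate 1 gave the highest for 22 of 31 (32.3% of all genes). Ifit1 shows the pattern, with 8.62, 8.34 and 8.09 in Control and 8.82, 9.29 and 8.16 in Pregnant lavage. Ifit2 measured 8.35, 8.25 and 8.17 in Control and 8.59, 9.06 and 7.90 in Pregnant lavage. Irf7 followed, at 8.39, 7.97 and 8.17 against 8.41, 8.74 and 8.11.

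Markers of other cells differed between the same arrays. The summed neutrophil markers were 20460, 6818 and 6390 on Control replicates 1 to 3 and 8480, 11290 and 6690 on Pregnant replicates 1 to 3. Control 1 and Pregnant 2, the arrays with the most high type I values, were the highest of their groups. The summed epithelial markers were 23480, 13910 and 18270 in Control and 21810, 26880 and 15840 in Pregnant lavage, again highest on these 2 arrays. Pregnant replicate 2 also had the largest actin 3' minus 5' difference of the lavage arrays, 0.391, whereas Control replicate 1 had the smallest, 0.261. The part of these markers and of RNA quality in the spread was not tested. In RAW264.7, Unstimulated replicate 3 gave the lowest value for 22 of 31 type I genes (33.6% of all genes). The median SD of type I genes in Unstimulated cells was 0.091 against 0.057 over all genes, and 8 of 31 exceeded the 90th percentile, near the 9 of 31 of Control lavage. On the Estradiol arrays it was 0.089 against 0.095, and 3 of 31 genes exceeded the 90th percentile.

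**Figure D5:**
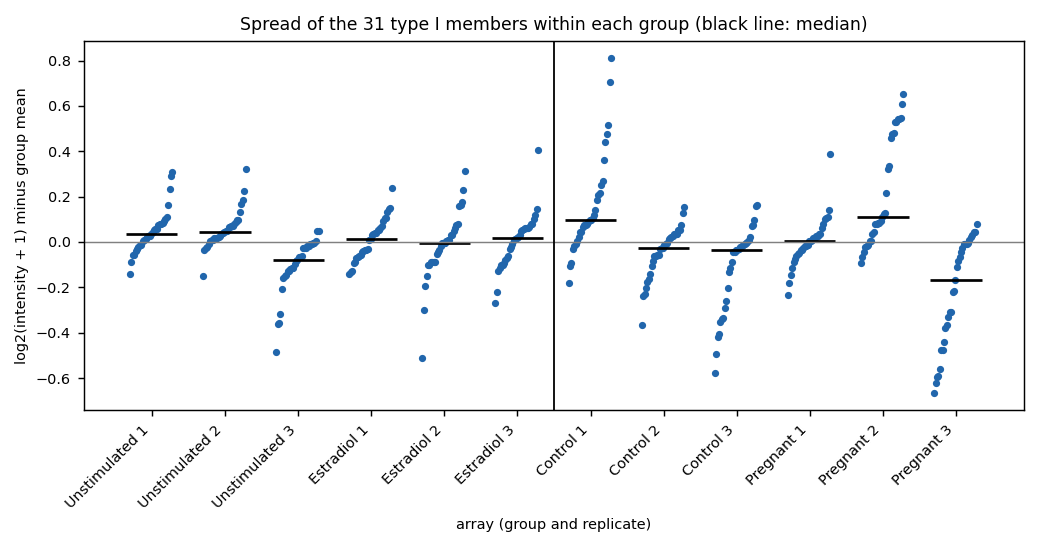
Each point is 1 of the 31 type I genes on 1 array, as log2(intensity + 1) minus the mean of its group, and the black line is the median of the 31 genes. The median lies at 0.10 on Control 1, 0.11 on Pregnant 2 and -0.17 on Pregnant 3, and nearer to 0 on the other arrays.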

How the data were processed

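Total RNA of 12 mouse samples was measured on Affymetrix expression arrays. The deposited table holds 1 intensity per probe set and array on a linear scale, from 6.51 to 28506, made by the authors with RMA per the submitters' processing notes, which give no version. RMA usually gives log2 values, and the design had allowed for either scale. Here log2(value + 1) was used, so folds of dim genes are understated. No detection calls were given, and array number limits the precision.

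Of 22690 probe sets, 20380 were paired with 1 gene symbol by the platform annotation, 691 with several and 1555 with none, and 64 were controls. One probe set per gene left 12393 genes. Each comparison was fitted in limma 3.58.1 (R 4.3.3, lmFit and eBayes) on its 6 arrays, or on all 12 for the difference of changes. Tests were two-sided, and the Benjamini-Hochberg adjustment covered all genes, and calls were made below 0.05. The fit was also run on simulated data, with changes larger than most of those called with estradiol among the interferon-stimulated genes. How well it recovers smaller changes was not tested.

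The genes, lists and tests were chosen with earlier results of these data known. All measured genes are accounted for. Array values are given for called genes, gamma-type genes, the 3 smallest p-values in pregnancy, and the 3 highest and 3 lowest in lavage. Up to 6 called genes per further list were named, and promoters were shown for the 2 type I and 2 gamma-type genes with the smallest p among those listed. Zbp1, Oas2, Usp18, Ifitm3 and a few others were also given array values in the estradiol comparison.

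Alternatives were quantile normalization, a common median, a filter on dim genes, the mean of probe sets, an intensity-dependent robust prior, no pseudocount, all 12 arrays in one fit, and each array left out. Replicates were numbered in deposit order and were not paired. Figures and promoter matches used Python 3.11.15, pandas 2.3.3, numpy 2.4.6 and matplotlib 3.10.9.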

Additional observations from a re-analysis of the deposited data

Results flagged for a closer look

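The estradiol and pregnancy changes of 6 genes differed by a test of the difference itself (limma, all 12 arrays, adjusted over 12393 genes). The test sets cultured RAW264.7 cells against lavage cells, so the kind of exposure cannot be told apart from the source of the cells. For Oas1a the difference was -0.68 (limma, adjusted p = 0.0035) and for Ifih1 it was -0.49 (limma, adjusted p = 0.0144). Both kept their call in all 18 alternatives. For Nmi the difference was -0.51 (limma, adjusted p = 0.0164, 0.00874 to 0.0523 over the alternatives), lost without Unstimulated replicate 2. For Gbp2 it was 1.06 (limma, adjusted p = 0.0209, 0.0107 to 0.0588 over the alternatives), lost without Unstimulated replicate 1 or 3 or Estradiol replicate 1. For Rtp4 it was -2.12 (limma, adjusted p = 0.0238, 0.00464 to 0.0698 over the alternatives), lost without Unstimulated replicate 1 or 2, Estradiol replicate 3 or Control replicate 2 or 3. For Sp100 it was -0.57 (limma, adjusted p = 0.0352, 0.0220 to 0.0918 over the alternatives), lost in 8 of 18, each of which left out 1 array.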

How the results depend on the processing

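With estradiol, the count of higher type I genes was 1 in place of 0 under the intensity-dependent robust prior and with all 12 arrays in one fit, and 0 to 1 with an array left out. The count of lower type I genes was 6 to 16 with an array left out, against 13, and 9 to 18 otherwise. Higher gamma-type genes numbered 0 after the filter on dim genes, which removes Gbp2 and Gbp3, and 1 to 2 with an array left out. Lower gamma-type genes numbered 1 under quantile normalization, 1 under a common median and 0 to 2 with an array left out. The filter on dim genes moved the gamma-type median for estradiol to -0.295 and the type I median for lavage against RAW264.7 to 0.521. In lavage against RAW264.7, lower gamma-type genes numbered 0 under quantile normalization, a common median and all 12 arrays, and 0 to 1 with an array left out. For the difference of changes, lower type I genes numbered 2 to 7, higher gamma-type genes 0 to 2 and lower gamma-type genes 0 to 1 with an array left out. The last count was 1 after the filter on dim genes and 1 under the robust prior. The Irf1 change with estradiol of 0.00 stood at -0.004, -0.031 and -0.097 without Unstimulated replicate 2, Unstimulated replicate 3 and Estradiol replicate 2, and at 0.071 without Estradiol replicate 1. Where no cause is named above, the cause was not tested. The type I median with estradiol stayed at -0.347 to -0.258 in the alternatives run, and none of the 37 genes was called in pregnancy. Over all genes, pregnancy calls numbered 18 of 12393 with all 12 arrays in one fit and 2 without Control replicate 1. After the filter on dim genes there was 1 among 7580 genes. The other alternatives gave none. No paired analysis was possible because replicate numbers follow deposit order only. With 3 arrays a group, dim genes and small changes are the least certain.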
